A study of Mus musculus with 6 samples.

Results

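Aminoacyl-tRNA synthetases, 20 of the cytosol and 16 of mitochondria, were followed in heads of mouse embryos that lacked Arid3b and in heads of wild type embryos. The 36 genes were taken by name, and all 36 were among the 14906 genes tested. Arid3b binds DNA through an AT-rich interaction domain. RNA came from Arid3b-null heads at embryonic day 9.5 (3 arrays) and from wild type heads of the same stage (3 arrays), each dissected with the first branchial arch, and each array held RNA pooled from 4 embryos of 1 genotype. The sources used here give neither the strain nor the design of the null allele nor the litters behind the pools. The p-values therefore reflect only how much these pools vary, and in such bulk RNA fewer cells of a type and less RNA per cell cannot be told apart.

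Each synthetase joins 1 amino acid to the tRNAs that carry it, the step that gives the genetic code its meaning. Animal cells use a set of these enzymes in the cytosol, several of them held together with scaffold proteins in the multisynthetase complex, and a second set, also encoded in the nucleus, that is imported into mitochondria to serve translation of the mitochondrial genome. Many genes of the cytosolic set are known as targets of Atf4, the transcription factor of the amino acid response and of the integrated stress response, in cultured mammalian cells. The comparison of null with wild type heads asks whether these genes differ in the absence of Arid3b, and whether the cytosolic and the mitochondrial set do so alike.

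Levels below are log2 signal relative to the 75th percentile of the same array, and differences are null minus wild type on that log2 scale, ± the standard error from limma, with 3 arrays per group. A difference passed the test at a limma adjusted p under 0.05 over all 14906 genes. On the 6 arrays 67.9% to 70.3% of the non-control spots exceeded background clearly, by the flag of the scanner software, and the 75th percentile was 626 to 977 intensity units. Each of 3 slides held the null and the wild type array of 1 replicate number, null arrays always in position 2 and wild type arrays in position 1, and an effect of genotype and one of position cannot be told apart. The brightest Arid3b probe stood at 1.27, 1.06 and 1.44 on the null arrays, against 1.98, 2.26 and 3.09 on the wild type arrays (difference -1.19 ± 0.29, limma adjusted p = 0.0265), and the call was lost without null replicate 1, 2 or 3 (0.0890, 0.0858 and 0.0697). Its other probes differed by -1.37 and -2.33. No source used here says whether these probes match deleted sequence. Head neural and arch mesenchyme marker genes were all measured (5 of 5 each). Summed linear levels of the marker lists, as multiples of the 75th percentile, were 27.0 to 31.3 in null and 21.7 to 25.3 in wild type heads for the neural list. The arch mesenchyme list summed to 6.71 to 8.18 in null and 6.90 to 10.8 in wild type heads. For the lists of other cells, the erythroid sums were 418 to 849 in null and 531 to 732 in wild type heads (5 of 5 genes measured), and the endothelial sums 6.34 to 7.70 and 6.04 to 10.5 (5 of 5). The heart sums were 0.316 to 0.367 in null and 0.255 to 2.21 in wild type heads (4 of 5, the high value in wild type replicate 2), and the trunk sums 0.0572 to 0.0828 and 0.0321 to 0.0402 (2 of 5). Myl7, Hoxc8, Hoxc9 and Cdx2 were not well above background on all arrays of either group. Of these markers Otx2 (neural) rose and Dlx2 and Prrx1 (arch mesenchyme) fell, though the difference of Prrx1 ran from -0.95 to -0.087 over 16 alternatives, of which 13 kept the call. T (trunk) also rose (1.54, and 0.40 with normexp background correction), but it was well above background on 3 null and 2 wild type arrays, so it was kept only through the group where it was high. The part of these cell mixtures in the results below was not tested.

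Among the cytosolic synthetases 4 genes rose and 2 fell in null heads, and 14 of the 20 did not pass. The shares, 20.0% higher and 10.0% lower, stand beside 12.3% higher and 11.2% lower among all genes tested. Among the mitochondrial synthetases 2 genes rose, 3 fell and 11 of the 16 did not pass (12.5% and 18.8%). One of these rises, Nars2, was kept only through the null arrays, and 1 rise was left where all 6 arrays had to be above background. In either direction 30.0% of the cytosolic and 31.2% of the mitochondrial genes passed, beside 23.5% of all genes tested. The median difference was 0.17 over the cytosolic genes and -0.01 over the mitochondrial genes, beside -0.04 over all genes tested. Within slides 1, 2 and 3 the cytosolic median was 0.24, 0.07 and 0.21 and the mitochondrial median -0.14, -0.14 and -0.07. With the brightest probe of each gene and scaling to the 75th percentile, the largest change was 1.80-fold, for Wars2, and 1777 of the 3506 genes that passed (50.7%) had a larger difference than any synthetase gene. The order among the synthetases depended on the processing: Wars2 was at -0.34 with the mean of its probes, and Nars2 led in the deposited value table (1.08) and after quantile normalization (1.04).

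**Figure D1:**
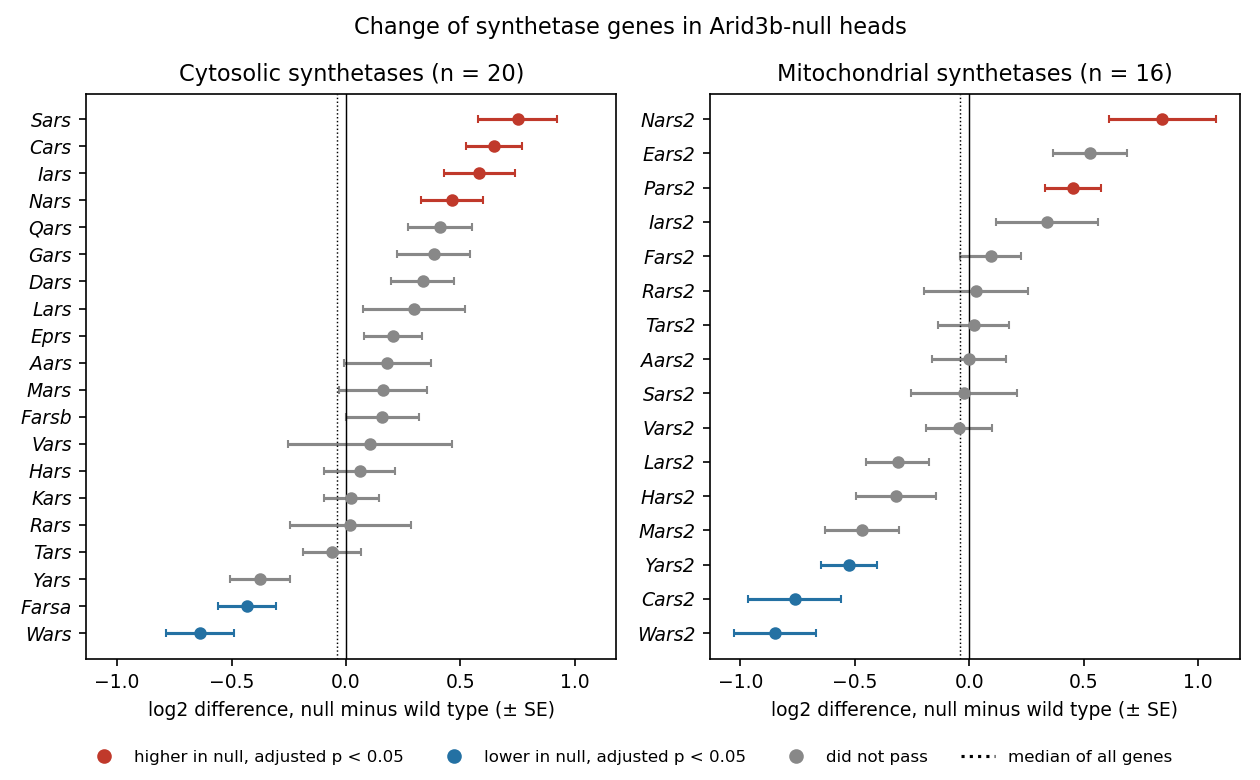
Log2 difference, null minus wild type (x axis, ± SE, 3 arrays per group), of the 20 cytosolic (left) and 16 mitochondrial (right) synthetase genes, ordered by size. Red genes rose and blue genes fell at a limma adjusted p under 0.05, grey genes did not pass, and the dotted line is the median of all genes tested (-0.04); the cytosolic points lie mostly right of 0, with a median of 0.17, and the mitochondrial points on both sides, with a median of -0.01.

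The 4 cytosolic genes that rose charge cysteine, serine, isoleucine and asparagine. Cars, the cysteinyl enzyme, had levels of 4.0, 4.05 and 4.02 on the null arrays, against 3.47, 3.32 and 3.34 on the wild type arrays. All null arrays lay above all wild type arrays, and the null arrays were close together. Cars rose 1.56-fold (difference 0.65 ± 0.12, limma adjusted p = 0.0113, and 0.0250 with slide as a block).

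Sars, the seryl enzyme, which also charges the tRNA on which selenocysteine is made, had levels of 4.96, 4.94 and 5.14 in null heads, against 4.11, 4.10 and 4.58 in wild type heads. Wild type replicate 3 was the array nearest to the null arrays. The rise was 1.68-fold (difference 0.75 ± 0.17, limma adjusted p = 0.0229). Iars, the isoleucyl enzyme and a member of the multisynthetase complex, had 3.56, 3.35 and 3.74 in null heads, against 2.86, 2.92 and 3.13 in wild type heads. The groups did not overlap, and the rise was 1.5-fold (difference 0.58 ± 0.16, limma adjusted p = 0.0361). Nars, the asparaginyl enzyme, had 1.75, 1.79 and 1.91 in null heads, against 1.45, 1.41 and 1.20 in wild type heads. Nars rose 1.38-fold (difference 0.46 ± 0.14, limma adjusted p = 0.0474), but did not pass with slide as a block (0.0767).

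The 2 cytosolic genes that fell charge tryptophan and phenylalanine. Wars, the tryptophanyl enzyme, had 3.90, 4.03 and 3.90 in null heads, against 4.74, 4.66 and 4.35 in wild type heads. Each null array lay below each wild type array, at 64.2% of the wild type signal (difference -0.64 ± 0.15, limma adjusted p = 0.0236). A second Wars probe, annotated to another RefSeq transcript of the gene, differed by -0.24 and did not pass when tested as a single probe (limma adjusted p = 0.393). Farsa, the catalytic subunit of phenylalanyl-tRNA synthetase, had 2.69, 2.49 and 2.63 in null heads, against 3.05, 3.01 and 3.05 in wild type heads, a fall to 74.1% (difference -0.43 ± 0.12, limma adjusted p = 0.0459). It did not pass with slide as a block (0.0652), and its second probe, at -0.04, did not pass as a single probe. The brightest Farsa probe did not pass as a single probe either (limma adjusted p = 0.0708). Farsb, the other subunit of this enzyme, had a difference of 0.16 ± 0.16 and overlapping groups. The single-probe fit was adjusted over all kept probes. In it Iars and Nars did not pass (0.0512 and 0.0703), whereas the brightest probes of Cars, Sars and Wars did (0.0192, 0.0319 and 0.0351).

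With 1 array left out, and so with fewer samples to test, Cars did not pass without null replicate 1 or 2 (limma adjusted p of 0.0570 and 0.0513). Sars, Wars, Iars and Farsa passed without wild type replicate 3, at 0.00533, 0.00795, 0.0218 and 0.0488, and in no other such fit. In those other fits the adjusted p was 0.0639 to 0.0836 for Sars, 0.0638 to 0.0986 for Wars, 0.0547 to 0.124 for Iars and 0.104 to 0.157 for Farsa, and Nars passed in none (0.0593 to 0.138). The fit without wild type replicate 3 was unlike the rest over all genes. There 5211 genes passed, against 3506 with all arrays and 1465 to 2209 without any other array.

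Of the 14 cytosolic genes that did not pass, Qars, Gars, Dars and Eprs were higher and Yars lower on every null array than on any wild type array. Qars, the glutaminyl enzyme, had 4.46, 4.6 and 4.55 in null heads, against 4.20, 4.25 and 3.93 in wild type heads (difference 0.41 ± 0.14, limma adjusted p = 0.0778). Qars passed with quantile normalization (0.59, 0.0163), normexp (0.63, 0.00599) and an intensity trend in the variance (0.0475). Gars, the glycyl enzyme, whose gene makes both the cytosolic and the mitochondrial form, had 6.04, 6.25 and 5.98 in null heads, against 5.90, 5.74 and 5.48 in wild type heads (0.38 ± 0.16, limma adjusted p = 0.128). Gars passed with quantile normalization (0.44, 0.0335) and normexp (0.45, 0.0124). The lowest array of either gene was wild type replicate 3. Yars, the tyrosyl enzyme, had the opposite sign, at -3.19, -3.45 and -3.31 in null heads, against -2.93, -2.99 and -2.92 in wild type heads (difference -0.38 ± 0.13, limma adjusted p = 0.0784). Dars, the aspartyl enzyme, had 0.68, 0.78 and 0.55 in null heads, against 0.45, 0.18 and 0.37 in wild type heads (0.33 ± 0.14, limma adjusted p = 0.128, and 0.0236 with array weights). Eprs, which carries the glutamyl and the prolyl activity in 1 chain, had 0.69, 0.87 and 0.67 in null heads, against 0.50, 0.57 and 0.56 in wild type heads (0.21 ± 0.13, limma adjusted p = 0.279). The gaps between the groups were narrow for Gars, Dars and Eprs. Lars, the leucyl enzyme that also serves as a leucine sensor for mTORC1, had 3.00, 3.45 and 2.98 in null heads, against 3.08, 3.02 and 2.44 in wild type heads (0.30 ± 0.22), and here the groups overlapped. Over the 20 cytosolic genes all null arrays were above all wild type arrays for 8 and below them for 3, or 40% and 15.0%, beside 20.6% and 21.8% of all genes tested.

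The remaining cytosolic genes had differences near 0. Those of Aars (alanine), Mars (methionine), Vars (valine), Hars (histidine), Kars (lysine, with 1 gene for both compartments), Rars (arginine) and Tars (threonine) were 0.18, 0.16, 0.10, 0.06, 0.02, 0.02 and -0.06. Among the 36 genes Vars had the largest standard error, 0.36, with levels of 2.71, 2.23 and 2.99 in null heads and 2.01, 2.30 and 3.30 in wild type heads.

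The 8 cytosolic enzymes that enter the multisynthetase complex (Lars, Iars, Mars, Qars, Rars, Kars, Dars and Eprs) had 1 rise, Iars (12.5%, beside 12.3% of all genes tested), and no fall, with a median of 0.25 and differences of 0.02 to 0.58. All 8 differences were positive, beside 46.8% of all genes tested, though Kars and Rars turned negative with median centring and Rars also with quantile normalization, normexp and the deposited value table. The other 12 cytosolic genes had 3 rises (25%) and 2 falls (16.7%, beside 11.2% of all genes tested) and a median of 0.13. The enzymes fall into 2 structural classes by the fold of their catalytic domain. Class I genes (9, leaving out Eprs, which holds both) had 2 rises, 1 fall and a median of 0.16, and class II genes (10) had 2 rises, 1 fall and a median of 0.17. Genes that passed made up 33.3% of class I and 30.0% of class II, beside 23.5% of all genes tested.

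Promoter sequences were read for 13 cytosolic and 14 mitochondrial genes from RefSeq (GRCm38.p6), over 250 bases before and 50 after the start of each gene. The letters TGATGNAA, the core of the amino acid response element that Atf4 binds with its partners, were searched on both strands, with N for any base. They occurred in 5 of the 13 cytosolic genes (38.5%) and in 0 of the 14 mitochondrial genes, beside 4.51% of all 27025 genes with a window. The E-box CACGTG occurred in 4 of the 13 cytosolic and 1 of the 14 mitochondrial genes, beside 8.09% of all genes. A match of letters is a description and does not show a bound site. The stretches around the 6 matches are shown because the element is a known regulatory feature of cytosolic synthetase genes; capitals mark the match, written 5′ to 3′ on the strand of the gene, and lower case the 26 bases on either side.
Iars, chr13:49682111-49682170, + strand: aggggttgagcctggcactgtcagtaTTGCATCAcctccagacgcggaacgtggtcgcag
Aars upstream, chr8:111033704-111033763, + strand: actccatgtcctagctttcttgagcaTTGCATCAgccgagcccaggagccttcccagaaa
Aars downstream, chr8:111033825-111033884, + strand: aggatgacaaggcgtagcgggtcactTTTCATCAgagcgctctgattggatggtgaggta
Gars, chr6:55037945-55038004, + strand: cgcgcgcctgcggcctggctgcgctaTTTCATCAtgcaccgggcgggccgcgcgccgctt
Tars, chr15:11399640-11399699, - strand: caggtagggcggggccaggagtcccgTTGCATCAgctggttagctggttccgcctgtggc
Yars, chr4:129189880-129189939, + strand: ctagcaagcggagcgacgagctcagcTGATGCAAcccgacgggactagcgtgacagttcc

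The match of Yars read on the strand of the gene, and the other 5 matches on the opposite strand. They began within 30 bases of the gene start in every case but the upstream match of Aars, which lay 112 bases before it. Of the 5 genes with a match 1 rose, Iars (0.58 ± 0.16), beside 12.3% of all genes tested, and 5 genes are too few to set against that share. The differences of Gars, Aars, Tars and Yars, which did not pass, were 0.38, 0.18, -0.06 and -0.38. Sars rose with no match in its window, and Farsa fell with none. Cars, Nars, Wars, Hars, Lars, Rars, Vars, Hars2 and Pars2 were not analysed here for promoter letters.

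Among the mitochondrial genes the largest change was a fall of Wars2, the tryptophanyl enzyme of mitochondria. Its levels were -0.82, -1.17 and -1.39 in null heads, against -0.29, -0.41 and -0.13 in wild type heads, a fall to 55.5% (difference -0.85 ± 0.18, limma adjusted p = 0.0173). The groups lay apart on this probe, but a second Wars2 probe had the opposite sign, with -3.58, -3.69 and -3.68 in null heads and -4.21, -3.87 and -3.39 in wild type heads (0.18, limma adjusted p = 0.626 as a single probe). With the mean of both probes Wars2 did not pass (-0.34, 0.203).

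Cars2, the cysteinyl enzyme of mitochondria, fell to 58.9%. Its levels were -1.32, -1.59 and -1.04 in null heads, against -0.81, -0.58 and -0.28 in wild type heads (difference -0.76 ± 0.20, limma adjusted p = 0.0357), and its second probe differed by -0.39 (0.135 as a single probe). Yars2, the tyrosyl enzyme of mitochondria, fell to 69.4%, with 0.44, 0.34 and 0.50 in null heads, against 1.0, 0.94 and 0.92 in wild type heads (-0.53 ± 0.12, limma adjusted p = 0.0233). Its arrays were close within each group and apart between the groups.

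The rises among mitochondrial genes were those of Pars2 and Nars2, which charge proline and asparagine. Pars2 had 1.41, 1.52 and 1.46 in null heads, against 1.02, 1.07 and 0.94 in wild type heads, 1.37-fold higher (difference 0.45 ± 0.12, limma adjusted p = 0.0372, and 0.0574 with slide as a block). Its second probe differed by 0.56. As single probes the second Pars2 probe passed (limma adjusted p = 0.0482) and the brightest did not (0.0586). Nars2 was dim, well above background on 3 null and 2 wild type arrays, with -5.21, -5.38 and -5.98 in null heads, against -6.14, -6.58 and -6.39 in wild type heads (0.84 ± 0.23, limma adjusted p = 0.0399). With another background correction, normexp, the difference of Nars2 was 0.10 and did not pass (0.536). Nars2 also did not pass as a single probe (limma adjusted p = 0.0506). The brightest probes of Wars2, Cars2 and Yars2 passed as single probes (0.0242, 0.0469 and 0.0380).

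Ears2, the glutamyl enzyme of mitochondria, had 0.01, -0.11 and 0.31 in null heads, against -0.52, -0.56 and -0.29 in wild type heads. Its groups lay apart, and it passed with slide as a block (limma adjusted p = 0.0393) but not without it (0.53 ± 0.16, 0.0558). Mars2, for methionine, had -3.95, -4.22 and -3.92 in null heads, against -3.33, -3.70 and -3.64 in wild type heads (-0.47 ± 0.16, limma adjusted p = 0.0778). Lars2, for leucine, had 0.54, 0.48 and 0.69 in null heads, against 0.78, 0.85 and 1.03 in wild type heads (-0.31 ± 0.14, limma adjusted p = 0.143). Both were lower on every null array than on any wild type array without passing. The other 8 mitochondrial genes, Hars2, Iars2, Fars2, Vars2, Tars2, Rars2, Sars2 and Aars2, had overlapping groups. Their differences were -0.32, 0.34, 0.09, -0.04, 0.02, 0.03 and -0.02 in that order, and Aars2 was at 99.9% of the wild type signal. The second probe of Tars2 differed by 0.40, and the mean of its probes by 0.21, neither of which passed. Vars2 was at -0.10, -0.16 and 0.05 in null heads and -0.18, -0.06 and 0.16 in wild type heads, and its second probe had the opposite sign (0.10).

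Leaving out 1 array also removed calls here. Wars2 did not pass without null replicate 2 or 3 or wild type replicate 1 (limma adjusted p of 0.0630, 0.0594 and 0.0504), nor Cars2 without null replicate 1 or 2 or wild type replicate 2 (0.116, 0.111 and 0.0847). Yars2 and Pars2 passed without wild type replicate 3 alone, at 0.0218 and 0.0432, with 0.0554 to 0.0942 and 0.0885 to 0.126 in the other fits. Nars2 passed without null replicate 3 alone, at 0.0246, with 0.0526 to 0.141 in the others. Ears2 passed without wild type replicate 3 (0.0310). Over the 16 mitochondrial genes all null arrays were above all wild type arrays for 3 and below them for 5. These are 18.8% and 31.2%, beside 20.6% and 21.8% of all genes tested.

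The enzymes of 16 amino acids could be set side by side across the compartments, in 17 pairs, since both Farsa and Farsb stand against Fars2 and Eprs stands against both Ears2 and Pars2. In 11 of the 17 pairs the signed difference of the cytosolic gene lay above that of the mitochondrial gene. This count goes by sign and not by size of change. The tryptophan pair is in it, for example, with -0.64 for Wars and -0.85 for Wars2. The change of the within-array difference between the 2 genes was tested by a two-sided exact permutation test, which with 3 null and 3 wild type arrays cannot go below p = 0.10, and no pair was below 0.212 after Benjamini-Hochberg adjustment over the 17 pairs. The pair values are therefore a description.

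The cysteine pair was farthest apart. Cars rose (0.65) and Cars2 fell (-0.76), an unequal change of 1.41 on the log2 scale, with 1.04, 1.73 and 1.45 within slides 1, 2 and 3 (exact permutation p = 0.10). This was the only pair of the 17 with a rise in one compartment and a fall in the other. The serine pair followed, with a rise of Sars (0.75) beside -0.02 for Sars2, whose levels were 1.04, 0.64 and 1.22 in null heads and 0.70, 0.89 and 1.38 in wild type heads. Its unequal change was 0.77, with 0.51, 1.1 and 0.71 within slides. The methionine pair was the third, at 0.63: Mars had 2.04, 1.87 and 2.41 in null heads and 1.73, 1.93 and 2.17 in wild type heads, where neither it nor Mars2 passed.

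In 2 pairs both genes passed in the same direction. Nars and Nars2 both rose (0.46 and 0.84), with the limit that Nars2 was kept only through the null arrays and had 0.10 with normexp, and Wars and Wars2 both fell (-0.64 and -0.85). The brightest probes carried the tryptophan pair. The second probes stood at -0.24 for Wars and 0.18 for Wars2, neither of which passed. The tyrosine genes Yars and Yars2 also had differences of 1 sign (-0.38 and -0.53), of which that of Yars did not pass.

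**Figure D2:**
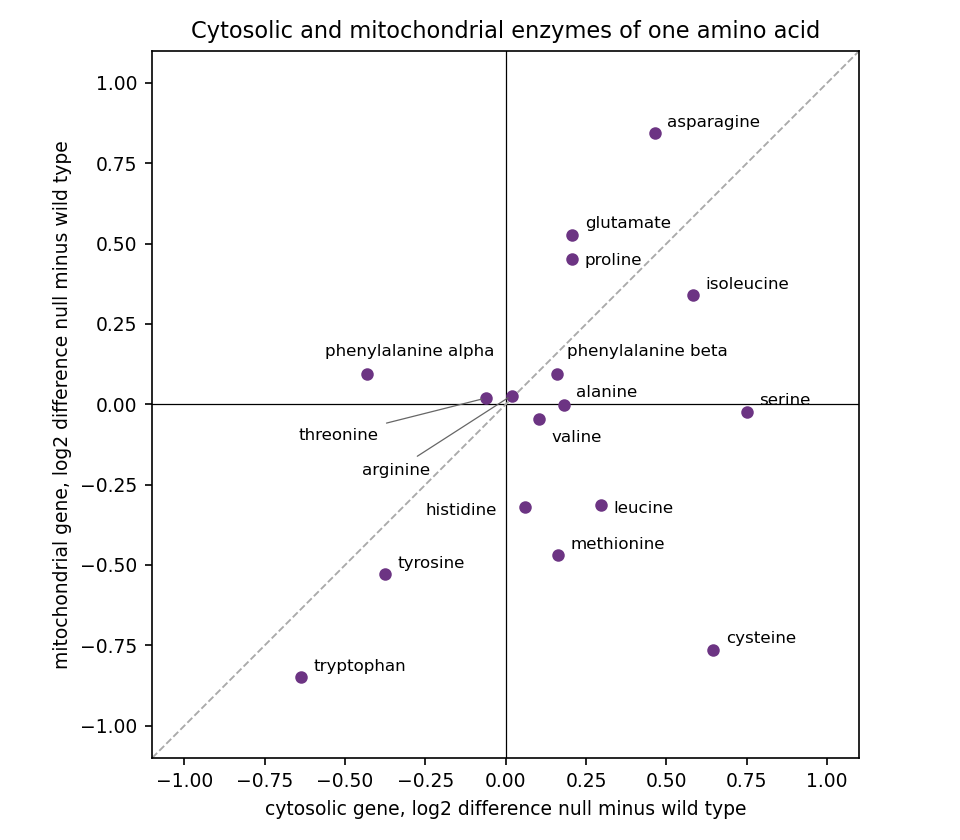
Log2 difference, null minus wild type, of the cytosolic gene (x axis) and of the mitochondrial gene (y axis) for each of 17 pairs named by amino acid, with a dashed line where both are equal; alpha and beta are the Farsa and Farsb subunits, each set against Fars2. The cysteine pair lies farthest from the line (0.65 and -0.76), asparagine lies at the upper right and tryptophan at the lower left.

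Genes that work beside the synthetases were followed in 3 lists. Of 12 partners of tRNA charging 1 fell (8.33%, beside 11.2% of all genes tested) and none rose, with a median of -0.01. The one that fell was Aimp2, a scaffold of the multisynthetase complex, at 4.18, 4.31 and 4.18 in null heads, against 5.06, 4.99 and 4.49 in wild type heads (difference -0.63 ± 0.18, limma adjusted p = 0.0461). The other 2 scaffolds of the complex, Aimp1 and Eef1e1, had -0.16 and -0.29 and did not pass. Aimp2 did not pass without null replicate 1, 2 or 3 (0.151, 0.0987 and 0.132) or wild type replicate 1 or 2 (0.128 and 0.135). Gtpbp2, a GTPase that rescues stalled ribosomes, had a difference of 0.68 ± 0.25 and passed with slide as a block (0.0238) but not without it (0.0884). Aarsd1 (-0.36) was lower on every null array than on any wild type array without passing (limma adjusted p = 0.109). In this list all null arrays were above all wild type arrays for 8.33% of genes and below them for 16.7%. Among all genes tested the shares were 20.6% and 21.8%.

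Of 13 mitochondrial translation factors 3 fell and none rose, 23.1% beside 11.2% lower over all genes, with a median of -0.05. These counts are of the main fit. Over 16 alternatives Gfm2 (0.11 in the main fit) ran from -0.88 to 0.23, and Mtif3 (0.002) from -0.13 to 0.52. Gfm2, Mtif3 and Mtrf1 each passed in 1 of the 16 alternatives, and Mrrf in 2. Tsfm, the exchange factor of the mitochondrial elongation factor Tufm, had -0.85, -0.70 and -0.51 in null heads, against 0.09, -0.03 and 0.41 in wild type heads (-0.85 ± 0.17, limma adjusted p = 0.0141). Gfm1, the translocase of mitochondrial elongation, had 1.88, 1.83 and 1.71 in null heads, against 2.60, 2.63 and 2.32 in wild type heads (-0.71 ± 0.14, limma adjusted p = 0.0143). Qrsl1, a subunit of the amidotransferase that makes glutaminyl-tRNA in mitochondria from glutamyl-tRNA, had -1.46, -1.51 and -1.14 in null heads, against -0.82, -0.88 and -0.58 in wild type heads (-0.61 ± 0.16, limma adjusted p = 0.0332). For these 3 genes each null array was below each wild type array. The other subunits of the amidotransferase, Gatb and Gatc, had 0.07 and 0.04 and did not pass. Mtrf1 (0.53) was higher on every null array than on any wild type array, and Mrrf (-0.49) and Tufm (-0.19) were lower. None of them passed (limma adjusted p of 0.0567, 0.0995 and 0.317). Over the list all null arrays were above all wild type arrays for 7.69% of genes and below them for 38.5%, beside 20.6% and 21.8% of all genes tested. Tsfm did not pass without null replicate 1 or 2 (0.0672 and 0.0528), nor Qrsl1 without null replicate 1 or 2 or wild type replicate 1 or 2 (0.0657 to 0.130), nor Gfm1 without null replicate 1, 2 or 3 or wild type replicate 2 (0.0524 to 0.0565).

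Of 9 genes of cytosolic elongation and termination 1 rose and 1 fell (22.2% in all, beside 23.5% of all genes tested), with a median of -0.33. Eef1g, a subunit of the exchange factor complex of eEF1A, had 5.80, 5.59 and 5.91 in null heads, against 5.04, 5.14 and 4.99 in wild type heads (0.71 ± 0.14, limma adjusted p = 0.0135). Etf1, the release factor that reads stop codons, had 0.72, 0.82 and 0.87 in null heads, against 1.25, 1.48 and 1.37 in wild type heads (-0.57 ± 0.13, limma adjusted p = 0.0229). Eef2, the translocase, had 0.78 ± 0.27 and passed with slide as a block (0.0386) but not without it (0.0817). Its groups overlapped, with null replicate 2 at 7.07 and wild type replicate 3 at 7.16. Gspt1 (-0.44), Eef1d (-0.36) and Abce1 (-0.33) were lower on every null array than on any wild type array. None of them passed (limma adjusted p of 0.0571, 0.0776 and 0.153). Over the list all null arrays were above all wild type arrays for 11.1% of genes and below them for 44.4%, beside 20.6% and 21.8% of all genes tested. Eef1g did not pass without null replicate 1 or 3 (0.0664 and 0.0512), nor Etf1 without null replicate 1, 2 or 3 or wild type replicate 2 (0.0585 to 0.106).

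**Figure D3:**
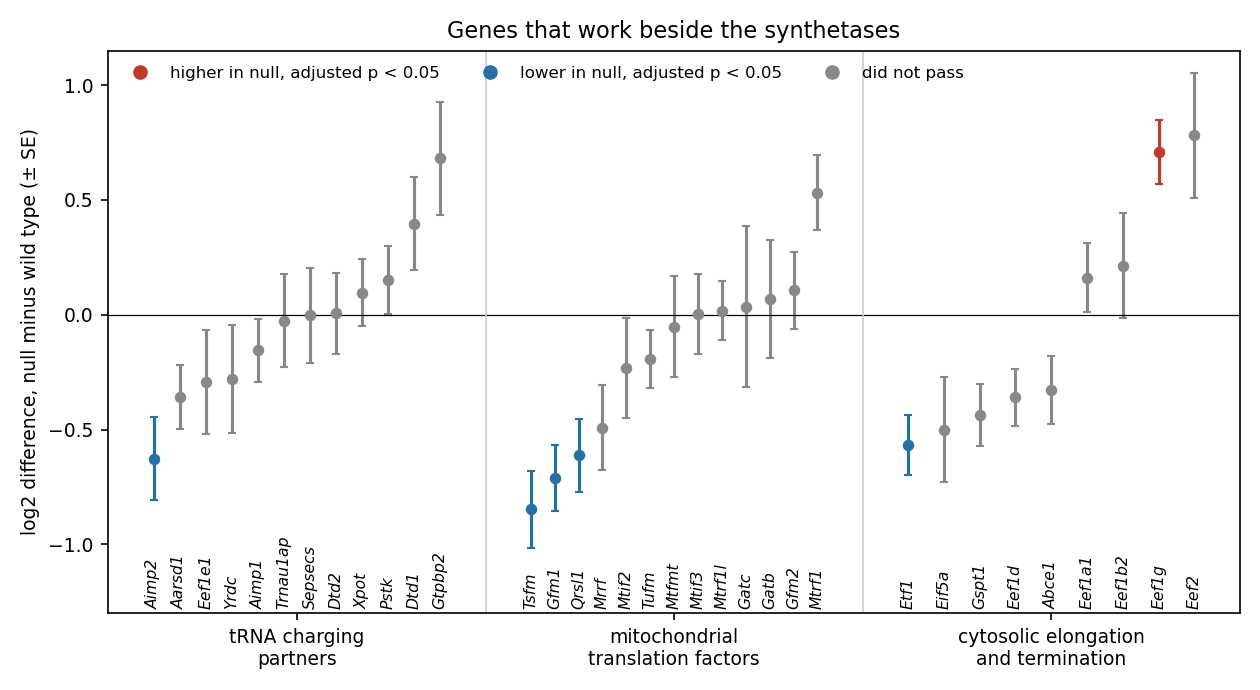
Log2 difference, null minus wild type (y axis, ± SE, 3 arrays per group), of 12 partners of tRNA charging, 13 mitochondrial translation factors and 9 genes of cytosolic elongation and termination, ordered by size within each list. Aimp2, Tsfm, Gfm1, Qrsl1 and Etf1 fell (blue), Eef1g rose (red) and the others did not pass (grey).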

How the data were processed

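Total RNA was labelled with Cy3 and hybridised to one-colour Agilent arrays, per the labels' protocols. Agilent Feature Extraction (10.7.3.1 in the file headers) wrote the deposited scanner files. They hold deposited spot intensities corrected by it for background and spatial trends, raw median intensities and flags of 0 or 1 (a code, not a level; other). A deposited value table holds log2 values with column medians of 6.76 to 6.77; no source used here says how the authors scaled them. Values are log2 processed intensity minus each array's 75th percentile, without control and outlier spots (84 to 156 per array). Probes (39429) were named through RefSeq accessions (GRCm38 table): 26424 got 1 symbol, 0 several and 13005 none; Mars is Mars1 there. A probe was kept if every array of either group flagged it above background and at least 5 arrays measured it, and the brightest stood for each gene. All 36 members passed this filter, with 44 of 45 probes. limma 3.58.1 (R 4.3.3) tested all 14906 genes, with Benjamini-Hochberg adjustment, and was checked on simulated data. The number of arrays limits precision.

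Members and lists were chosen with earlier results of these data known. Values in every array were given for the 12 cytosolic and 8 mitochondrial genes with the smallest p. They were also given for genes whose kept probes differ in sign, for the 3 pairs farthest apart and for passing partner genes. Those of Vars were added after they were seen. Gtpbp2, Aarsd1, Mtrf1, Mrrf, Tufm, Eef2, Gspt1, Eef1d, Abce1 and the markers were named after their values were seen. Alternatives were other normalizations, normexp (offset 50, on median signals), the value table, filters, probe rules, variance models, the slide block, a threshold of 0.01 and leaving out each array. Naming by a gene name column was planned and not run, since the scanner files analysed here hold none.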

Additional observations from a re-analysis of the deposited data

How the results depend on the processing

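Over all genes tested, 1272 passed at an adjusted p under 0.01, 2270 with no filter on dim probes, 6685 with array weights and 1465 to 5211 with 1 array left out. At 0.01 no cytosolic or mitochondrial synthetase rose or fell (0 of each; by limma 11 members passed at 0.05). Cytosolic rises numbered 6 with quantile normalization and with normexp, 5 with an intensity trend and with array weights, 3 with median centring and the value table, 1 with no filter and 0 to 3 with 1 array left out. Rises over all genes tested numbered 1834 in the main fit, 1975 with quantile normalization, 1876 with normexp and 1910 with an intensity trend. They numbered 3231 with array weights, 1660 with median centring and, of 20021 genes, 1236 with no filter. With 1 array left out rises over all genes numbered 852 to 2514, and with the all-array filter 1702 of 14182 genes rose. The value table held only 11 of the 20 cytosolic and 12 of the 16 mitochondrial genes, and 1803 of its 12545 genes rose. Cytosolic falls numbered 1 with quantile normalization, normexp, the mean of probes and the replicate block, and 0 with the deposited value table or no filter (0 to 2 with 1 array left out). Falls over all genes tested numbered 1672 in the main fit, 1485 with quantile normalization, 1537 with normexp and 1704 with the mean of probes. They numbered 1761 with the replicate block, 1332 with the value table, 1034 with no filter and 613 to 2697 with 1 array left out. Mitochondrial rises numbered 1 with median centring or the all-array filter, 4 with array weights and 0 with no filter (0 to 2), and falls 1 with no filter (0 to 3). The cytosolic median was 0.27 with quantile normalization and 0.077 to 0.26 with 1 array left out. The mitochondrial median was 0.051, 0.037, 0.032 and -0.057 with quantile normalization, normexp, the value table and array weights, and -0.095 to -0.020 with 1 array left out. The value table held only the second probes of Wars (-0.27) and Farsa (-0.05), which did not pass. Farsa also did not pass with quantile normalization or normexp (adjusted p of 0.160 and 0.197).

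Signs turned in 10 genes, none of which passed. With array weights these were Hars -0.074, Tars2 -0.098, Sars2 0.11, Rars2 -0.15 and Aars2 0.082; with the value table, Sars2 0.015, Rars -0.018 and Vars2 0.049; with the mean of probes, Vars2 0.028; with median centring, Rars -0.0084, Tars2 -0.0072 and Kars -0.0026. With normexp they were Tars 0.074, Rars -0.025 and Aars2 0.12; with quantile normalization, Tars 0.10, Sars2 0.013, Rars -0.016 and Aars2 0.090. With 1 array left out the ranges were -0.076 to 0.11 for Aars2, -0.065 to 0.17 for Hars, -0.0076 to 0.047 for Kars, -0.23 to 0.23 for Rars, -0.21 to 0.21 for Rars2, -0.17 to 0.17 for Sars2, -0.097 to 0.10 for Tars2, -0.16 to 0.49 for Vars and -0.12 to 0.047 for Vars2.

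The cause of these shifts was not tested. Replicate numbers shared a slide, and deviations of same-numbered arrays correlated at -0.20, 0.15 and 0.42. Those of differently numbered arrays ran from -0.52 to 0.49, so a pairing by slide is not evident in them. The replicate block left 3 cytosolic rises and 1 fall, beside 1928 rises and 1761 falls over all 14906 genes tested. Of 562 alternative values of single genes, 442 kept their direction and side of the threshold, and these include genes that passed in neither setting. The 11 members that passed had 15 or 16 alternatives each. Among these, 71 values lost the call, 49 with 1 array left out and 22 in other settings. Naming by a gene name column was not run. Low signal limits Nars2, which wild type replicates did not all show above background.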
